A study of Homo sapiens with 6 samples.

Results

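Antigen presentation was followed here through 10 genes, B2M, HLA-E, TAP1, TAP2, PSMB8, PSMB9, ERAP1, NLRC5, CD74 and CIITA. They were chosen by gene symbol, and each has 1 probe among the 17687 genes that the array's annotation names. The arrays came from 2 established ovarian cancer lines. RMG1, derived from a clear cell carcinoma, received siCPNE8 #A or #B, with siControl as its control. OVCAR3, derived from a high-grade serous carcinoma, received siBHLHE41 #A or #B, with a siControl array of its own. CPNE8 encodes a calcium-dependent phospholipid-binding protein and BHLHE41 a transcription factor, and #A and #B are siRNAs of different sequence against the same gene. Each transfection had 1 Affymetrix Clariom S array, 6 arrays in all, and the study's methods give a harvest time for the qRT-PCR check of knockdown but name none for the arrays. With 1 array per siRNA and 1 control array per line, a ratio to siControl carries no replicate check of its own, and nothing in the sources says that the arrays came from separate cultures.

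Class I molecules carry peptides from inside the cell to the surface, where cytotoxic T cells read them. The proteasome cuts proteins into peptides, the TAP1 and TAP2 transporter moves the peptides into the endoplasmic reticulum, ERAP1 trims their ends, and a heavy chain such as HLA-E binds them together with β2-microglobulin, the product of B2M. PSMB8 and PSMB9 replace constitutive catalytic subunits of the proteasome when cells respond to interferon. NLRC5 drives the class I genes and CIITA the class II genes, and CD74, the invariant chain, escorts class II molecules, which professional antigen-presenting cells normally use. Interferon gamma is known to induce most of these genes in tumor cells of epithelial origin, and some cancers lose or silence them.

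Promoter windows are printed for B2M, ERAP1 and CD74, which lay above background and carry matches to the interferon or κB motif. They are also printed for TAP1 and TAP2, which carry the interferon motif although their probes were not above background. PSMB8, also above background, carries neither of these motifs and is not printed, though a window of it holds the gamma-activated site defined below. The windows are the 250 bases before the annotated start in RefSeq, build GRCh38.p14, and 7 of the 10 members had at least 1 window (10 windows in all). Capitals mark matches on either strand to the interferon-stimulated response element (GAAA repeated after 2 bases), the interferon gamma-activated site TTCNNNGAA, or κB (GGGA, 4 bases, CC, or GGG, 3 bases, TTCC).
B2M, chr15:44711267-44711516, plus strand: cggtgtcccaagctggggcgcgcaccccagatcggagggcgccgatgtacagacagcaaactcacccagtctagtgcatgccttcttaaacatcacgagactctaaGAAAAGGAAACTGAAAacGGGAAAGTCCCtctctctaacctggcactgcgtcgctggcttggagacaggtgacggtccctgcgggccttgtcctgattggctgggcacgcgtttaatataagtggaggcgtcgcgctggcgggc
TAP1, chr6:32853705-32853954, minus strand: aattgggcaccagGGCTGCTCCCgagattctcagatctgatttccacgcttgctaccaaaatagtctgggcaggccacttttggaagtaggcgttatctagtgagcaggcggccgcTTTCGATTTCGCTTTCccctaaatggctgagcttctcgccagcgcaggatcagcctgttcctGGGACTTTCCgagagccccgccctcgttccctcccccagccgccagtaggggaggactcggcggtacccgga
TAP2, chr6:32838740-32838989, minus strand: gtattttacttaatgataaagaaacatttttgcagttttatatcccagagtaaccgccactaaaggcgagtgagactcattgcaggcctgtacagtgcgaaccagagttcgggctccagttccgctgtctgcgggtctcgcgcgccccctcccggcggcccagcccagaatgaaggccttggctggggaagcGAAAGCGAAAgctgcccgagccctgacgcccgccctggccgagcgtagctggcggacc
ERAP1, chr5:96807946-96808195, minus strand: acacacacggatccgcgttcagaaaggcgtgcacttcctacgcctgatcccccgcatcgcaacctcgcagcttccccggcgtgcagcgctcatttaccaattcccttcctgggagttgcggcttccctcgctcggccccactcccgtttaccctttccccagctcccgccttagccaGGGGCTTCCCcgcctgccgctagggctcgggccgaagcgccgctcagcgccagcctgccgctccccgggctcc
CD74, chr5:150412911-150413160, minus strand: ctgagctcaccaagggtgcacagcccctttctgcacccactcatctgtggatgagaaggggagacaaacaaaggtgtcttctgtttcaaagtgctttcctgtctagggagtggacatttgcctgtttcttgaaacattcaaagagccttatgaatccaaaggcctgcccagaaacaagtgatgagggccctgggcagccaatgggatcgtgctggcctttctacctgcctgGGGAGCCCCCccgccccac

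The B2M window held 2 overlapping matches to the interferon element, the first beginning 144 bases before the start, followed by overlapping κB matches. The TAP1 window held 2 overlapping matches to the same element, read on the opposite strand and beginning 134 bases before the start, and κB matches at 237 and 72 bases. TAP2 had 1 interferon element at 58 bases. ERAP1 had a κB match at 73 bases and CD74 one at 19 bases. The interferon element occurred in 3 of the members' windows and in 3.02% of the 35116 windows of all genes, and κB occurred in 4 of the members' windows and in 24.7% of all. The gamma-activated site was found only in the other annotated windows of TAP1 and PSMB8, which are not printed (6.57% of all windows). CCAAT, the Y box letters of MHC promoters, was found in 5 members (32% of all windows) and TGACG in 4 (21.2%), while TGACGTCA was found in 0 (1.65%). The windows of TAP1 and PSMB9, whose starts lie 488 bases apart on opposite strands, overlap by 13 bases, and the CCAAT of both is the same stretch. PSMB9 and the first window of PSMB8 had no interferon element, gamma-activated site or κB match. A match is a stretch of letters in a window and no measure of binding.

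Values are log2 signals as deposited. A probe was called above background where it exceeded the level under which 95% of the 612 negative controls of its array lay, a level between 7.86 and 8.47. Between 37.2% and 41.2% of the 21448 transcript probes passed this level per array. Across all probes, r was 0.990 to 0.993 for pairs of arrays within a line and 0.938 to 0.943 for pairs across the lines. The targeted genes were below siControl: CPNE8 read 10.67 with siCPNE8 #A and 11.92 with #B, against 13.76 with siControl, and BHLHE41 read 12.99 with siBHLHE41 #A and 13.63 with #B, against 14.51 with siControl. Of 9 epithelial markers 8 were above background in each line, EPCAM among them. Of 21 leukocyte markers, TYROBP passed in 1 RMG1 array and NCAM1 in all OVCAR3 arrays, and PTPRC, which marks leukocytes in general, lay between 5.31 and 6.01. Of the 3 clear cell markers measured, ARID1A alone passed, in both lines. Of 6 serous markers, 3 were above background on some RMG1 array and 4 on some OVCAR3 array. WT1 read between 3.55 and 4.31 in RMG1 and between 8.05 and 8.71 in OVCAR3 (above background on 2 of 3 arrays). MUC16 read 11.58 to 12.18 in RMG1 and 14.39 to 14.68 in OVCAR3. PAX8 and MECOM went the other way. PAX8 read 15.36 to 15.49 in RMG1 and 13.87 to 14.38 in OVCAR3, and MECOM 13.06 to 14.04 and 10.65 to 11.32. ESR1 and SOX17 were above background on no array.

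B2M, PSMB8 and ERAP1 were above background on all 6 arrays, and CD74 on the 3 OVCAR3 arrays and on no RMG1 array. The other 6 members, HLA-E, TAP1, TAP2, PSMB9, NLRC5 and CIITA, were above background on no array. For those 6 the levels are given without a fold change, since a difference between signals at background has no measurable size. The choice of background matters for them. At the 90th percentile of the negative controls (between 6.71 and 6.99) HLA-E, TAP1, TAP2 and PSMB9 would also count as above it on some array, making 8 members, and at the 99th percentile (between 10.6 and 12.2) B2M and ERAP1 alone would.

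**Figure D1:**
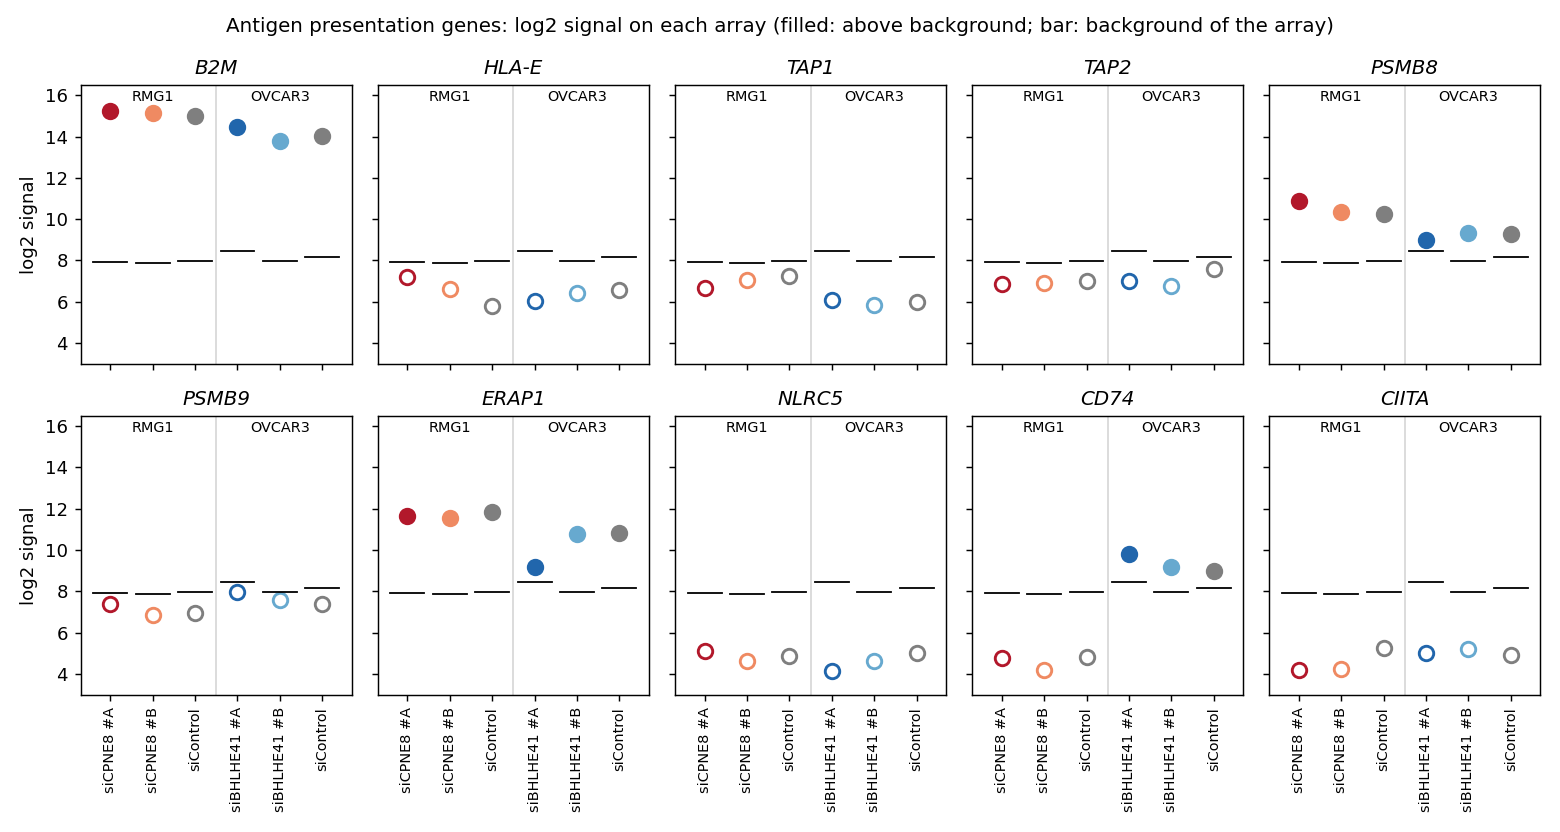
Log2 signal (vertical axis) of each of the 10 genes on each of the 6 arrays (horizontal axis, siRNA arrays left of the siControl array of their line). Filled points are above the background of their array, drawn as a bar. B2M, PSMB8 and ERAP1 are filled throughout, CD74 is filled in OVCAR3 alone, and the other 6 genes lie under the bar on every array.

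The question of the RMG1 comparison was which genes change when CPNE8 is knocked down in clear cell carcinoma cells. No member above background was past the ratio with both siRNAs, the ratio being over 1.5 for higher and under 0.66 for lower. B2M, the light chain of class I molecules, read 15.24 with siCPNE8 #A and 15.13 with #B, against 14.99 with siControl. Both siRNA arrays were above the control, on average by 0.19 ± 0.08 on the log2 scale (SD, n = 2 siRNAs).

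PSMB8, an interferon-inducible catalytic subunit of the proteasome, read 10.86 with siCPNE8 #A and 10.32 with #B, against 10.23 with siControl. The array with #A stood apart at 1.54-fold, while #B was at 1.06-fold. ERAP1, the aminopeptidase that trims peptides for class I, read 11.63 with #A and 11.54 with #B, against 11.86 with siControl. Its ratios were 0.855 and 0.801, both within the limits. PSMB9, another inducible subunit, read 7.40 with #A and 6.83 with #B, against 6.96 with siControl, all below background.

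HLA-E, a nonclassical heavy chain that natural killer cells read through NKG2A, had levels of 7.21 with siCPNE8 #A and 6.61 with #B, against 5.80 with siControl. Its probe passed the ratio for higher with both siRNAs, but on no array was it above background. CIITA, the class II transactivator, had 4.21 with #A and 4.22 with #B, against 5.27 with siControl, and passed the ratio for lower with both siRNAs, also below background throughout. Thus 1 of 10 members was higher and 1 of 10 lower with both siRNAs, beside 2.56% of all transcript probes higher and 2.69% lower. With siCPNE8 #A alone, HLA-E and PSMB8 were past the ratio for higher (8.66% of all probes) and CIITA past that for lower (8.79%). With #B alone, HLA-E was past the ratio for higher (6.18%) and CIITA and CD74 past that for lower (7.07%), CD74 at 4.18 against 4.80 with siControl and below background on both.

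TAP1, a chain of the peptide transporter, read 6.67 with #A and 7.07 with #B, against 7.24 with siControl. TAP2, its partner, read 6.84 with #A and 6.92 with #B, against 7.01 with siControl. NLRC5, the class I transactivator, read 5.13 with #A and 4.63 with #B, against 4.85 with siControl. All 3 genes stayed under background. In limma's fit over all probes no transcript probe passed an adjusted p of 0.05 (0% called, smallest adjusted p = 0.859), with 570 higher and 611 lower at an unadjusted p under 0.05, CIITA and HLA-E among them. The adjusted p of the members was 0.859 or above in this fit. Its 2 residual degrees of freedom come from the pairs of siRNAs, so a p-value measures the spread between 2 siRNA sequences and assumes that a control array varies like them.

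The OVCAR3 comparison asked the same of BHLHE41 knockdown in serous carcinoma cells. With both siRNAs together, 0 of 10 members were past the ratio for higher and 0 for lower, beside 3.09% and 2.13% of all transcript probes. The siRNAs differed most at ERAP1, which read 9.20 with siBHLHE41 #A and 10.79 with #B, against 10.80 with siControl. With #A the signal was 0.329 of the control, above background, and with #B it was 0.993. The mean log2 ratio of -0.81 ± 1.13 (SD, n = 2 siRNAs) therefore rests on 1 array, and its limma adjusted p was 0.982 (SE 0.58).

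CD74 read 9.79 with siBHLHE41 #A and 9.16 with #B, against 8.96 with siControl, which is 1.78-fold with #A and 1.15-fold with #B. B2M read 14.46 with #A and 13.80 with #B, against 14.02 with siControl, so that the siRNAs lay on opposite sides of the control. PSMB8 read 8.98 with #A and 9.31 with #B, against 9.28 with siControl, and the siRNAs again lay on opposite sides. The array with siBHLHE41 #A also had the highest background of the 6 arrays (8.47, against 7.97 with #B and 8.17 with siControl), and the part of this in the differences between #A and #B was not tested.

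**Figure D2:**
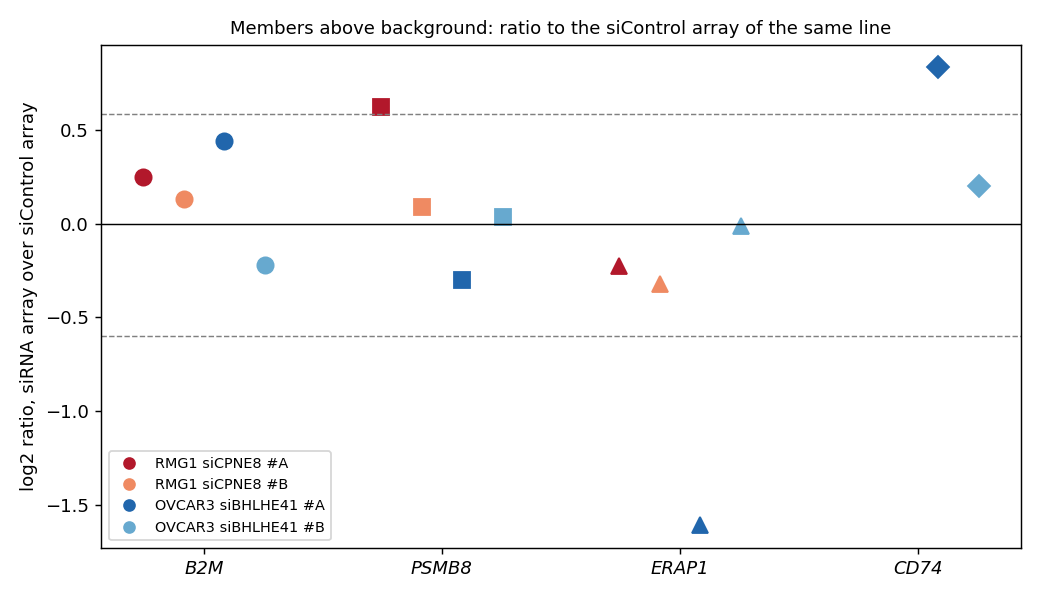
Log2 ratio of each siRNA array over its siControl array (vertical axis) for the genes and lines above background; 1 point is 1 siRNA array, and dashed lines mark ratios of 1.5 and 0.66. ERAP1 with siBHLHE41 #A is at -1.60, CD74 with #A at 0.83 and PSMB8 with siCPNE8 #A at 0.62, and all other points lie between the dashed lines.

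The members below background in OVCAR3 were as follows. TAP2 read 7.0 with siBHLHE41 #A and 6.75 with #B, against 7.60 with siControl. NLRC5 read 4.15 with #A and 4.65 with #B, against 5.0 with siControl. Both genes were under the control with both siRNAs. HLA-E read 6.02 with #A and 6.43 with #B, against 6.56 with siControl, and TAP1 read 6.06 with #A and 5.82 with #B, against 5.98 with siControl. PSMB9 read 7.96 with #A and 7.60 with #B, against 7.37 with siControl, and CIITA read 5.03 with #A and 5.20 with #B, against 4.91 with siControl. Both of these were above the control with both siRNAs and under the background of their arrays.

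By single siRNA, PSMB9 and CD74 were past the ratio for higher with siBHLHE41 #A (7.77% of all transcript probes) and NLRC5 and ERAP1 past that for lower (6.59%). With #B, 0 members were past the ratio for higher (7.88% of all) and TAP2 was past that for lower (7.03%). The limma fit called 0% of all transcript probes in OVCAR3 (smallest adjusted p = 0.783, with 634 higher and 465 lower at an unadjusted p under 0.05, TAP2 among the lower). The adjusted p of the members was between 0.948 and 0.999.

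The lines themselves were compared over the siRNAs. All 3 arrays of RMG1 were set against all 3 of OVCAR3, so the arrays of a line share the cells but not the siRNA, and the lines also differ in culture medium. B2M, PSMB8 and ERAP1 were higher and CD74 was lower in RMG1. Across all transcript probes limma (4 residual degrees of freedom) called 17.8% higher and 19.2% lower in RMG1, and 48.4% had levels that did not overlap between the lines. Of the 10 members 4 were called higher, 1 was called lower, and 5 did not overlap.

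B2M averaged 15.12 ± 0.12 in RMG1 and 14.09 ± 0.34 in OVCAR3 (SD, n = 3 arrays each), a difference of 1.03 (SE 0.20, limma adjusted p = 0.00339), or 2.04-fold. PSMB8 averaged 10.47 ± 0.34 in RMG1 and 9.19 ± 0.18 in OVCAR3 (SD, n = 3 arrays each), a difference of 1.28 (SE 0.21, limma adjusted p = 0.00116), or 2.43-fold. The arrays of the lines did not overlap for either gene, with RMG1 at 14.99 or more and OVCAR3 at 14.46 or less for B2M, and at 10.23 or more and 9.31 or less for PSMB8. ERAP1 averaged 11.67 ± 0.16 in RMG1 and 10.27 ± 0.92 in OVCAR3 (SD, n = 3 arrays each), a difference of 1.41 (SE 0.39, limma adjusted p = 0.0194). The low OVCAR3 array with siBHLHE41 #A widened that spread. Without it the difference was 0.88 and was still called (limma adjusted p = 0.00965), and without the RMG1 siControl array the call was lost (limma adjusted p = 0.0584).

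CD74 averaged 4.58 ± 0.34 in RMG1 and 9.31 ± 0.43 in OVCAR3 (SD, n = 3 arrays each), a measured difference of -4.73 (SE 0.26, limma adjusted p = 1.62e-06). As no RMG1 array was above background, CD74 was at least 2.63-fold lower in RMG1, set against the background of each RMG1 array. CD74 is best known from B cells, macrophages and dendritic cells. The summed signal of the 21 leukocyte markers was between 10.03 and 10.30 in RMG1 and between 14.18 and 14.72 in OVCAR3 on the log2 scale, and this difference was that of NCAM1, a neural adhesion molecule also carried by natural killer cells. Without NCAM1 the sum of the remaining 20 was between 9.88 and 10.16 in RMG1 and between 9.70 and 9.90 in OVCAR3. None of the 20 was above background in OVCAR3, and in RMG1 TYROBP alone was, on 1 array. The sum is thus one of signals at background, and the source of the CD74 signal was not tested.

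TAP1 averaged 6.99 ± 0.29 in RMG1 and 5.95 ± 0.12 in OVCAR3 (SD, n = 3 arrays each), and it was the fourth member called higher in RMG1 (limma adjusted p = 0.00236), with both lines below background. TAP2, NLRC5, PSMB9, CIITA and HLA-E overlapped between the lines, with limma adjusted p between 0.0711 and 0.691.

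**Figure D3:**
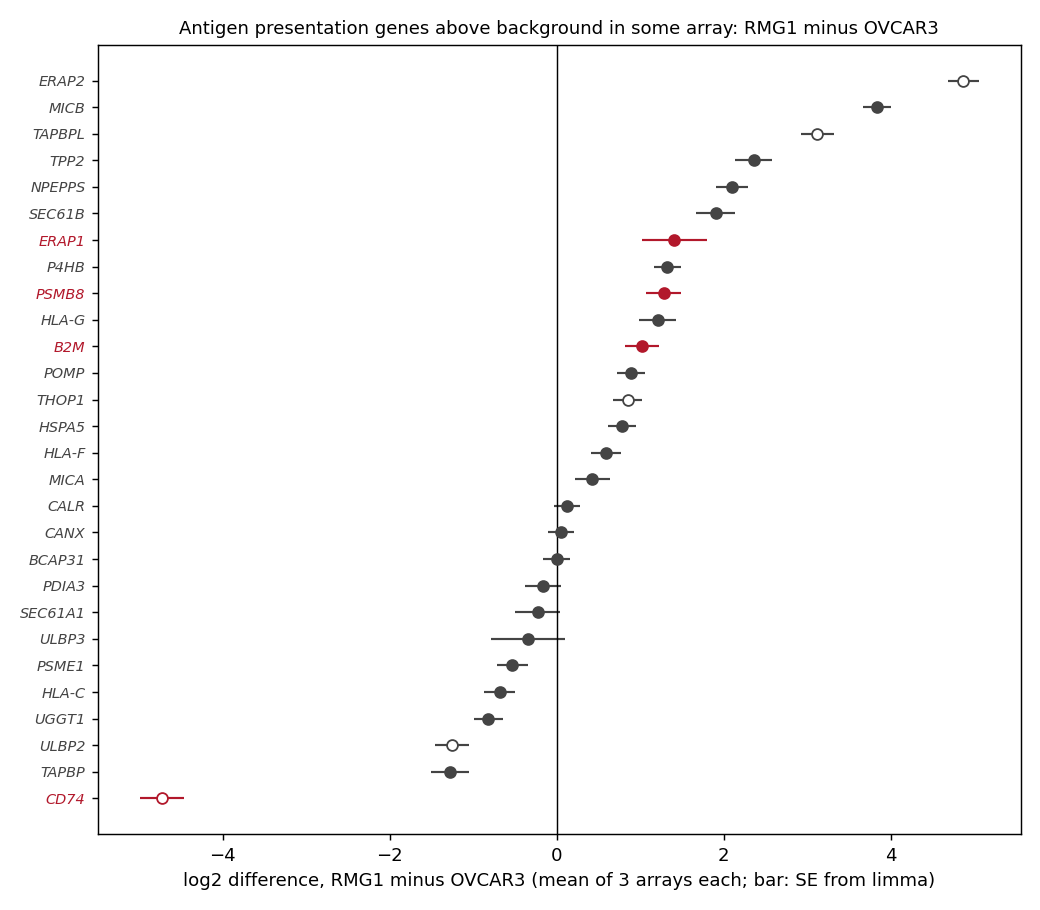
Log2 difference between the lines, RMG1 minus OVCAR3 (horizontal axis, mean of 3 arrays each, with the SE from limma as bar), for the members (red) and the other genes of the class I lists above background on some array. Open points were above background on no array of 1 line, so their distance from 0 is not a measured fold. ERAP2 at 4.87 and CD74 at -4.73 lie at the ends, with B2M, PSMB8 and ERAP1 between 1.03 and 1.41.

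Other genes of the class I pathway were taken from lists by function. Of 15 measured genes of peptide loading and trimming, 8 were called higher and 2 lower in RMG1, beside 17.8% and 19.2% of all transcript probes. ERAP2, the aminopeptidase that works beside ERAP1, read 11.13, 11.17 and 11.06 in RMG1 (siCPNE8 #A, #B, siControl) and 6.53, 5.98 and 6.24 in OVCAR3 (siBHLHE41 #A, #B, siControl). It was above background in RMG1 alone and at least 7.53-fold higher there (limma adjusted p = 2.35e-07). The cytosolic peptidases TPP2 and NPEPPS were higher in RMG1 by 2.36 and 2.10 on the log2 scale. Tapasin (TAPBP), which bridges TAP and the heavy chain, was lower in RMG1 by -1.28 (SE 0.23, limma adjusted p = 0.00174), and its relative TAPBPL was higher, above background in RMG1 alone. In OVCAR3, SEC61A1, a subunit of the endoplasmic reticulum channel, was the 1 gene of these 15 past the ratio with both siRNAs. It read 12.37 with siBHLHE41 #A and 12.46 with #B, against 11.54 with siControl. Over all transcript probes, 3.09% were higher and 2.13% lower with both siBHLHE41 siRNAs.

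Among 13 measured heavy chains and relatives, 4 were called higher and 3 lower in RMG1, the share of lower calls being close to the 19.2% over all transcript probes. HLA-C averaged 10.23 in RMG1 and 10.91 in OVCAR3, a difference of -0.68 (SE 0.19, limma adjusted p = 0.0197). HLA-G averaged 10.98 in RMG1 and 9.77 in OVCAR3, a difference of 1.21 (SE 0.22, limma adjusted p = 0.00202), and in RMG1 it read 11.10 with siCPNE8 #A and 11.30 with #B, against 10.53 with siControl. HLA genes share near-identical stretches and vary between individuals, so the probe of one HLA gene may read another, and HLA-E, HLA-C and HLA-G are uncertain for that reason. MICB, a stress ligand of the NKG2D receptor, averaged 13.06 in RMG1 and 9.22 in OVCAR3, a difference of 3.84 (SE 0.17, limma adjusted p = 4.89e-07), and the arrays did not overlap.

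The constitutive proteasome was set beside PSMB8 and PSMB9. All 16 of its measured subunits and activators were above background on some array of each line. In OVCAR3 siBHLHE41 #A gave them a median log2 ratio of -0.33 and #B one of -0.22, beside -0.01 over all transcript probes with either siRNA. Of the 16, PSMA3, an outer ring subunit, was past the ratio for lower with both, beside 2.13% of all transcript probes. It read 12.53 with #A and 12.60 with #B, against 13.22 with siControl. In RMG1 the medians were 0.02 with siCPNE8 #A and -0.04 with #B. Between the lines 7 of the 16 were called higher (17.8% of all transcript probes) and 3 lower (19.2%) in RMG1, PSMB3 by 1.92 and PSMA6 by -1.23.

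Of the 18 measured class II genes none of the 9 chains HLA-DRA, HLA-DRB1, HLA-DRB5, HLA-DPA1, HLA-DPB1, HLA-DQA1, HLA-DQB1, HLA-DOA and HLA-DOB was above background on any array, in OVCAR3 either, where CD74 was. HLA-DRA, the partner that CD74 escorts, read 3.97 with siBHLHE41 #A and 4.37 with #B, against 4.75 with siControl. HLA-DMA, which helps to load class II molecules, read 8.59 with siCPNE8 #A and 8.19 with #B in RMG1, against 7.55 with siControl, where it was not above background. It was thus at least 1.53-fold higher with #A and at least 1.16-fold higher with #B.

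Among 18 measured regulators of MHC genes, RFX5, a subunit of the factor that holds NLRC5 and CIITA on their promoters, read 8.12 with siCPNE8 #A and 8.19 with #B, against 8.83 with siControl. NFKB1, a subunit of the factor that binds κB, read 10.71 with #A and 11.34 with #B, against 12.20 with siControl. These were the 2 regulators past the ratio for lower with both siRNAs in RMG1, and IRF9, the DNA-binding subunit that reads the interferon element, was the 1 past that for higher, at 8.68 with #A and 9.14 with #B, against 8.03 with siControl. Over all transcript probes in RMG1, 2.69% were lower and 2.56% higher with both siRNAs. In OVCAR3 none of the 18 was past either ratio with both siRNAs (2.13% lower and 3.09% higher over all transcript probes). None of these genes passed the limma test for a knockdown.

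Type I interferon-stimulated genes were set beside the members because interferons are known to induce both groups. In RMG1, 13 of 49 measured genes were past the ratio for higher with siCPNE8 #A, 27 with #B and 11 with both. Over all transcript probes the shares were 8.66%, 6.18% and 2.56%. Of the 11, 7 were above background on some RMG1 array. Past the ratio for lower were 3, 1 and 0 of the 49, beside 8.79%, 7.07% and 2.69% of all transcript probes. Their medians on the log2 ratio scale were 0.28 for #A and 0.65 for #B, those of the 10 members were 0.10 for #A and -0.15 for #B, and those of all transcript probes were 0.00 and -0.01. Most members were below background, and the sign with #B turned without them: over genes above background on some RMG1 array the medians were 0.25 for #A and 0.09 for #B in 3 members, 0.40 and 0.74 in 29 interferon-stimulated genes, and 0.01 and 0.04 in 9156 transcript probes. IFI6 read 11.39 with #A and 12.66 with #B, against 10.10 with siControl, and IFIT1, an RNA-binding antiviral protein, read 10.03 with #A and 11.41 with #B, against 9.32 with siControl. MX1, an antiviral GTPase, read 9.05 with #B, at least 2.11-fold above siControl, where it was not above background. On the same array B2M was at 1.10-fold and PSMB8 at 1.06-fold. SP110 and SAMD9 were also over the ratio with both siRNAs. The sensor TLR3 is not among the 49. It was the 1 of 28 measured interferons, receptors and nucleic acid sensors higher with both siRNAs, and 0 were lower. SAMD9 was not above background with siControl, so it was at least 1.03-fold higher with #A and at least 2.14-fold higher with #B.

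UBE2L6, an enzyme of the ISG15 pathway, read 7.27 with #A and 6.42 with #B, against 5.08 with siControl, all below background in RMG1, whereas it read between 11.83 and 12.15 in OVCAR3. IFI44L read 5.71 with #A and 7.60 with #B, against 4.50 with siControl, also below background. OAS1 and IFI44 were above background with #B alone, at least 1.21-fold and at least 1.02-fold above siControl. In OVCAR3 the 49 genes had medians of 0.05 with siBHLHE41 #A and -0.08 with #B. With both siRNAs 1 was past the ratio in each direction, beside 3.09% higher and 2.13% lower over all transcript probes.

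**Figure D4:**
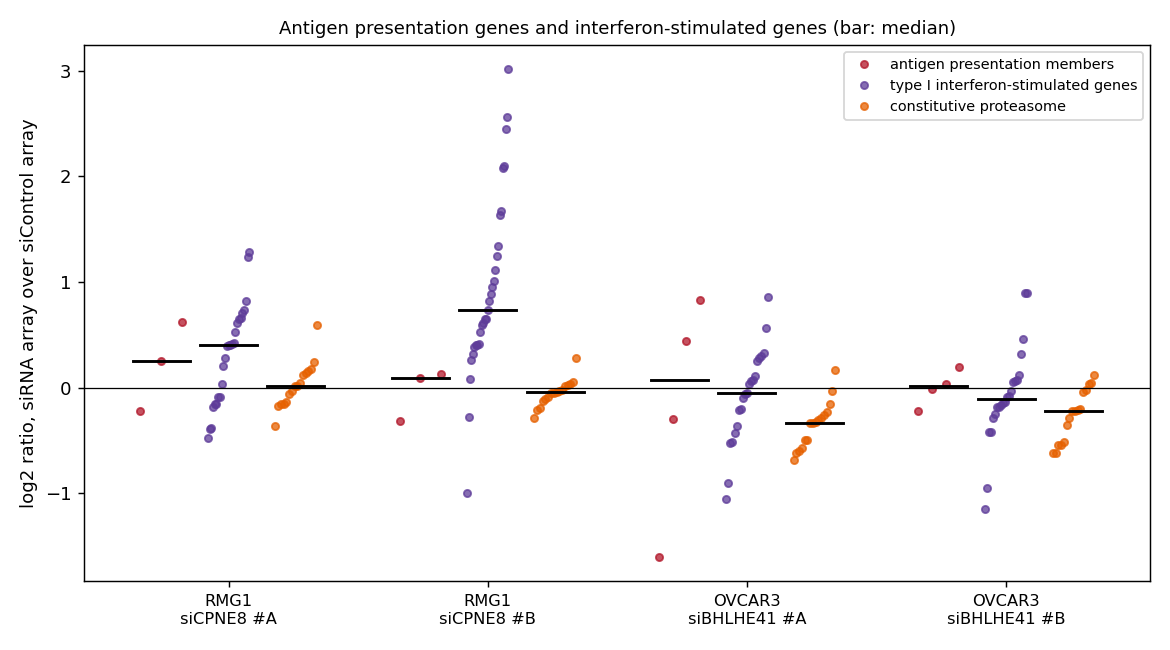
Log2 ratio over the siControl array (vertical axis) for the members, the type I interferon-stimulated genes and the constitutive proteasome on each of the 4 siRNA arrays; 1 point is 1 gene above background on the siRNA array or its control, and bars are medians. With siCPNE8 #B, IFI6, above background on both arrays, is at 2.56, and the members lie between -0.32 and 0.13; a point above background on 1 of the 2 arrays alone, such as MX1 at 3.02, has no measured size.

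Of 20 measured genes of the interferon gamma path, 2 were higher and 0 lower with both siCPNE8 siRNAs (2.56% and 2.69% of all transcript probes). Of the 2, GBP2, a guanylate-binding protein, was the one above background, at 9.73 with #A and 9.41 with #B, against 8.78 with siControl. In OVCAR3, 3 were lower and 0 higher with both siBHLHE41 siRNAs (2.13% and 3.09% of all transcript probes). Of the 3, GBP1, of the same family, was the one above background on some OVCAR3 array, at 7.43 with #A and 8.52 with #B, against 9.33 with siControl. With #A, where it was not above background, GBP1 was at least 1.81-fold lower. IFNG and IFNB1, the interferon ligands themselves, were below background on every array, at most 4.55 and 4.06. Between the lines, 3 of the 20 interferon gamma path genes were called higher and 8 lower in RMG1. Of 28 measured interferons, receptors and nucleic acid sensors, 3 were called higher and 6 lower. Over all transcript probes the shares were 17.8% higher and 19.2% lower. The sensor CGAS averaged 10.52 in RMG1 and 3.88 in OVCAR3 and was at least 4.97-fold higher in RMG1 (limma adjusted p = 4.11e-08).

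Genes with the most similar pattern were sought among 8736 named genes above background on some array. They were set against the mean level of 7 class I members, B2M, TAP1, TAP2, NLRC5, PSMB8, PSMB9 and HLA-E. That mean was 8.48 with siCPNE8 #A and 8.22 with #B, against 8.15 with siControl in RMG1, and 7.80 with siBHLHE41 #A and 7.77 with #B, against 7.97 with siControl in OVCAR3. The 5 genes with the highest Pearson r over the 6 arrays were MFSD2A (r = 0.996), STX7 (r = 0.995), MIA2, FAF2 and XPC (each r = 0.990). MFSD2A, a lipid transporter, read 12.85 with siCPNE8 #A and 11.64 with #B, against 11.40 with siControl, and 9.12 with siBHLHE41 #A and 8.90 with #B, against 10.24 with siControl. The 5 genes nearest by the 4 log2 ratios were TRMT112 (Euclidean distance 0.084), FAM162A (0.089), RBM14 (0.104), C3orf52 (0.108) and RARS1 (0.110). These are descriptions over 6 arrays of 2 lines, and the 2 ratios of a line share its siControl array. Of the 7 members in the mean, 5 lay below background.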

How the data were processed

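Total RNA was extracted with ISOGEN, and biotinylated cRNA was hybridised to Clariom S arrays. The authors deposited log2 values for 24351 probes (21448 for transcripts, 2903 controls), made with RMA and Affymetrix Expression Console, as the submitters' processing notes name them; versions were not given in the sources used here. RMA corrects background, normalizes between arrays and summarises each transcript. The highest log2 values lay between 17.7 and 18.4, above the 16 of a 16-bit scanner, so a rescaling not described in the sources may stretch or shrink ratios. Gene symbols came from the platform annotation: 17709 probes have 1 symbol and 3739 transcript probes are unnamed, and 0 symbols changed when updated by gene identifier (RefSeq, GRCh38.p14).

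Ratios were taken to the siControl array of that line. Single probes were fitted with limma 3.58.1 in R 4.3.3, for the knockdowns over 4 groups and for the lines over 2, adjusted by Benjamini-Hochberg over 21448 transcript probes, and the fits were tested on simulated data. Precision is limited by the number of arrays. The 10 members and the 13 other lists (230 genes, 213 measured) were written with earlier results of these data known, and they are described by counts and medians. All members were named; of each other list the rule named up to 5 genes per line above background with the largest mean log2 ratio, up to 8 interferon-stimulated genes with the largest ratio on 1 array, and the 5 genes most like the class I members by each measure. Genes given for the difference between lines, and IFNG, IFNB1, HLA-DRA and PTPRC, were chosen after their values were seen. Motifs were searched on both strands. Alternatives were quantile normalization, centring, control probes, dim probes left out, a variance trend, other fits, other folds, probes above background and each array left out. The percentiles of the background and the sum without NCAM1 were chosen after seeing the data.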

Additional observations from a re-analysis of the deposited data

How the results depend on the processing

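The line differences of B2M, PSMB8, ERAP1 and CD74 kept their direction under every alternative run. ERAP1 lost its call without the RMG1 siControl array (1.32, adjusted p = 0.0584, against 0.00965 to 0.0584 over its alternatives). In OVCAR3 the small ratios of B2M and PSMB8, called under no setting, turned to -0.22 and 0.037 without siBHLHE41 #A (ranges with 1 siRNA left out, -0.22 to 0.44 and -0.30 to 0.037).

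By fold, members past the ratio were few, and 1 gene more or less moved a count. With both siCPNE8 siRNAs, members higher numbered 0 at a fold of 2 and 0 above background, 1 to 2 with 1 siRNA left out; members lower numbered 0 above background and 1 to 2 with 1 siRNA left out. With both siBHLHE41 siRNAs, members higher numbered 0 to 2 with 1 siRNA left out, and members lower 1 under quantile normalization or centring (TAP2, just outside the limit with #A otherwise) and 1 to 2 with 1 siRNA left out. With siCPNE8 #A alone, 1 member was higher at a fold of 2 and 1 above background, and 0 were lower above background. With siCPNE8 #B alone, 0 were higher at a fold of 2 or above background, 1 was lower at a fold of 0.5 or after quantile normalization and 0 above background. With siBHLHE41 #A alone, 0 were higher at a fold of 2 and 1 under quantile normalization, centring or above background, and 1 was lower at 0.5 or above background. With siBHLHE41 #B alone, 0 were lower at 0.5 or above background. Members called lower in RMG1 than in OVCAR3 ranged from 1 to 2 with 1 array left out.

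Over all transcript probes, the fold of 2 or 0.5 left 93 higher and 91 lower with both siCPNE8 siRNAs and 106 and 73 with both siBHLHE41 siRNAs; above background these counts were 242 and 186, and 329 and 173. With 1 siRNA left out they were 1325 to 1858 higher and 1517 to 1885 lower in RMG1, and 1667 to 1691 higher and 1414 to 1507 lower in OVCAR3. Single siRNAs gave, at a fold of 2 or 0.5, 428 and 494 (siCPNE8 #A), 258 and 264 (siCPNE8 #B), 354 and 307 (siBHLHE41 #A) and 359 and 326 (siBHLHE41 #B), and above background 742 and 762, 486 and 365, 666 and 570, and 755 and 557. With control probes in the fit limma called 1 probe higher in RMG1. The causes were not tested. No paired analysis was possible because #A and #B name different siRNAs in each line and siControl has 1 array per line.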
